A study of Mus musculus with 12 samples.

Results

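Hearts under pressure overload were compared with sham-operated hearts of mice that ate a diet containing the branched-chain amino acids (BCAA: leucine, isoleucine and valine). The comparison used 6 of the 12 libraries of the series, chosen by their labels: 3 sham libraries and 3 libraries after TAC (transverse aortic constriction), in which a tied aorta makes the left ventricle pump against higher pressure. Of the 15928 genes in the table of this comparison, 15873 had a mean of at least 10 normalised reads and were tested. All animals were male C57Bl/6J mice, 12 weeks old. No transgene or deletion is labelled. The diet of both groups also carried 1% propionate, a product of gut bacteria and of BCAA breakdown, so that the sham controls received propionate too. Feeding started 4 days ahead of the operation, and hearts were collected 1 week after it. The 6 libraries of the BCAA-free diet, which carried propionate as well, serve below for the comparison between the diets and for an alternative estimate of the spread. The labels do not state that the libraries of a group are separate mice, and p-values then reflect library-to-library spread, which may be technical. In bulk RNA, fewer cells of a type and less RNA per cell cannot be told apart.

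Pressure overload raises wall stress in the left ventricle, and heart muscle cells answer by adding sarcomeres and by growing in width. The growing adult heart is known to switch on genes of the fetal heart and of skeletal muscle, among them skeletal actin and the natriuretic peptides. It is also known for a shift away from fatty acids as the main fuel, in which targets of the nuclear receptor PPAR-alpha are turned down. Cell division and matrix genes, which move strongly in such hearts, are counted here but not described gene by gene. Excepted are members that a pathway list or another rule also named.

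The 6 libraries held 29927472 to 42114919 reads in listed genes. Markers of heart muscle cells were high throughout: 8 of 8 were listed, and together they made up 68600 to 74200 CPM (reads scaled to a common library total) in each library. Transcripts of liver stood out in TAC replicate 3, where 22 liver markers summed to 453 CPM, against 17.4 to 21.6 CPM in the sham libraries and 41.7 and 17.9 CPM in TAC replicates 1 and 2. Alb, which encodes serum albumin, had 6668 reads in TAC replicate 3 and 0 to 3 reads in each other library. Short RNAs of RNA polymerase III (Rmrp, Rpph1 and Rn7sk) summed to 122 CPM in TAC replicate 2, where the other 5 libraries had 1.59 to 8.22 CPM. The calls were therefore repeated with each library left out, and with TAC replicates 2 and 3 both left out. Calls of named genes that were lost are given below, as are list counts in those fits wherever any of them reached 4. In that last fit 1 TAC library stands against 3 sham libraries and is assumed to vary as they do.

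**Figure D1:**
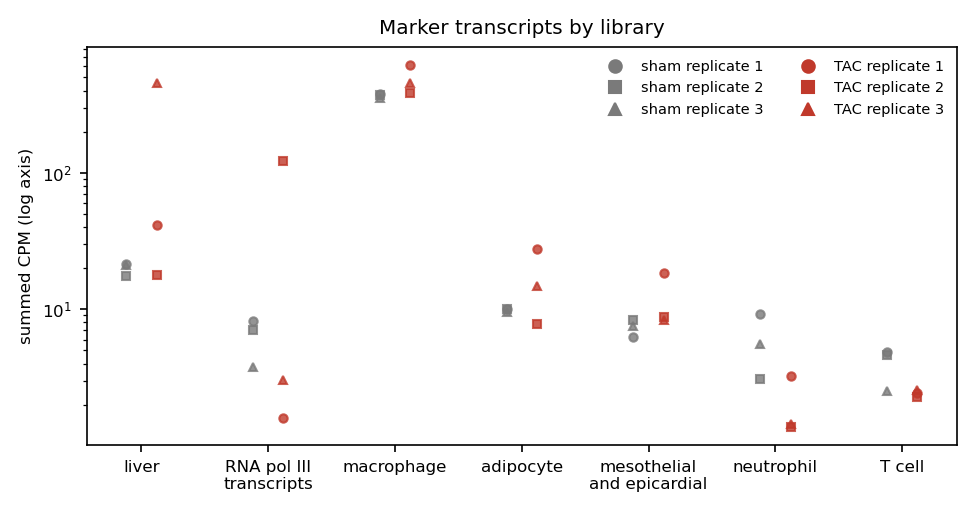
Summed CPM of marker transcripts (vertical log axis) for 7 marker lists (horizontal axis) in each library, with 1 point per library, grey for sham and red for TAC. TAC replicate 3 lies apart for liver transcripts (453 CPM) and TAC replicate 2 for RNA polymerase III transcripts (122 CPM), while the macrophage, adipocyte and mesothelial sums are highest in TAC replicate 1.

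Of the 15873 genes, 540 rose (3.4%) and 308 fell (1.94%) at an adjusted p under 0.05 by limma, 848 in all (5.34%). Counts in the lists below are to be read against these shares. At least a 2-fold change was seen for 213 of the rises and 24 of the falls. Cell division genes supplied 134 of the rises and 1 of the falls, from 270 tested, and matrix genes 47 and 3, from 205. The rises in cell division numbered 95, 120 and 101 without sham replicates 1, 2 and 3, 86, 87 and 106 without TAC replicates 1, 2 and 3, and 68 without both TAC replicates 2 and 3. Matrix rises numbered 15, 30 and 24 without sham replicates 1, 2 and 3, 37, 36 and 44 without TAC replicates 1, 2 and 3, and 64 without both TAC replicates 2 and 3. Outside these 2 lists 359 genes rose (2.33%) and 304 fell (1.97%), of 15398 tested. Among all genes tested the sham and TAC libraries did not overlap for 14.5%, with TAC higher, and for 13.6%, with TAC lower, so a lack of overlap alone was common. Fold changes are given as log2 differences with their SE, n = 3 per group, on log2(normalised reads + 4), which understates the change of low genes. Adjusted p-values are from limma unless another tool is named.

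How far the calls rest on single libraries was asked by refitting. With 1 library left out, the count of called genes was 300 without sham replicate 1, 659 without sham replicate 2 and 331 without sham replicate 3. It was 400, 399 and 634 without TAC replicates 1, 2 and 3. The genes shared with the 848, in the same direction, numbered 270, 499 and 309 for the sham libraries and 379, 370 and 551 for the TAC libraries. With TAC replicates 2 and 3 both left out, 15663 genes were tested, with 534 rises (3.41%) and 306 falls (1.95%), and 469 of these 840 (5.36%) were among the 848. All 848 kept their sign in that fit, and their median absolute change was 0.75 against 0.61 with all 6 libraries. The 848 were chosen with the same sham libraries and TAC replicate 1, so a kept sign was likely beforehand and is no separate test. TAC replicate 1, the library then left, had the largest change of the TAC libraries in the genes that rose, whose medians were 0.97, 0.72 and 0.67 in TAC replicates 1 to 3. Genes that fell showed the same order, with medians of -0.58, -0.45 and -0.41.

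**Figure D2:**
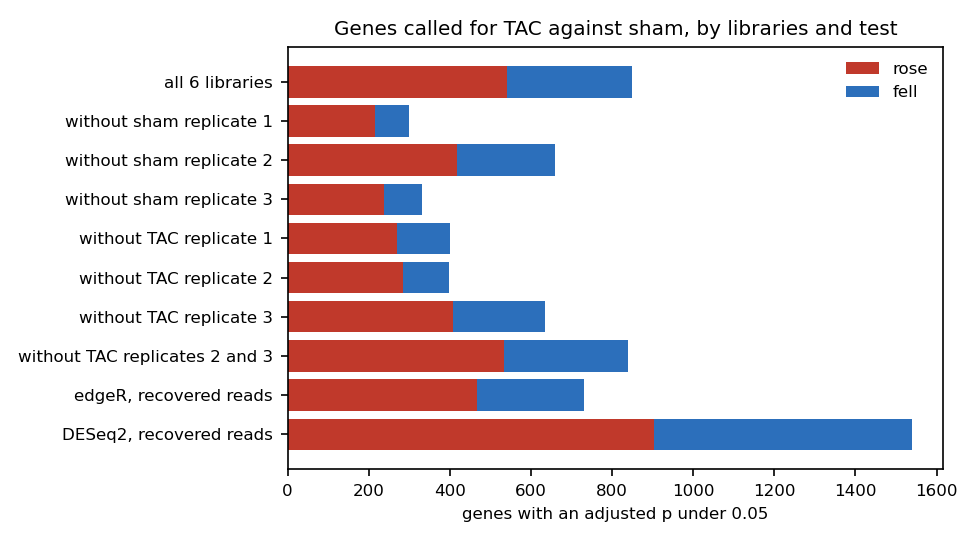
Number of genes with an adjusted p under 0.05 (horizontal axis, from 0) for TAC against sham, split into rises (red) and falls (blue), with all 6 libraries, with libraries left out (limma) and by 2 count models on the recovered reads. The bars run from 300 genes without sham replicate 1 to 1539 by DESeq2, and the bar without TAC replicates 2 and 3 (840) is close to that of all 6 libraries (848).

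A core of 163 genes (1.03% of those tested) passed in the same direction in all 8 fits: with all 6 libraries, with each library left out, and without both TAC replicates 2 and 3. It held 125 rises (0.788%) and 38 falls (0.239%). By edgeR and by DESeq2 on the recovered reads, 163 of 163 also passed. The core was chosen by limma on the same libraries, so these passes were likely beforehand and are no separate test. The filter on the mean was applied anew in each of the 8 fits, and the core depends on that. Without TAC replicate 3 but with the genes of the 6-library fit kept, 91 genes passed, so not all of the core did. Of the core, 63 were cell division genes, 16 were matrix genes and 84 were neither. Among those 84, 33 stood in one of the pathway lists described next. The pathway lists were not cleared of cell division and matrix genes, so their counts and core members include some of these. In the results that follow, core means this set of 163.

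**Figure D3:**
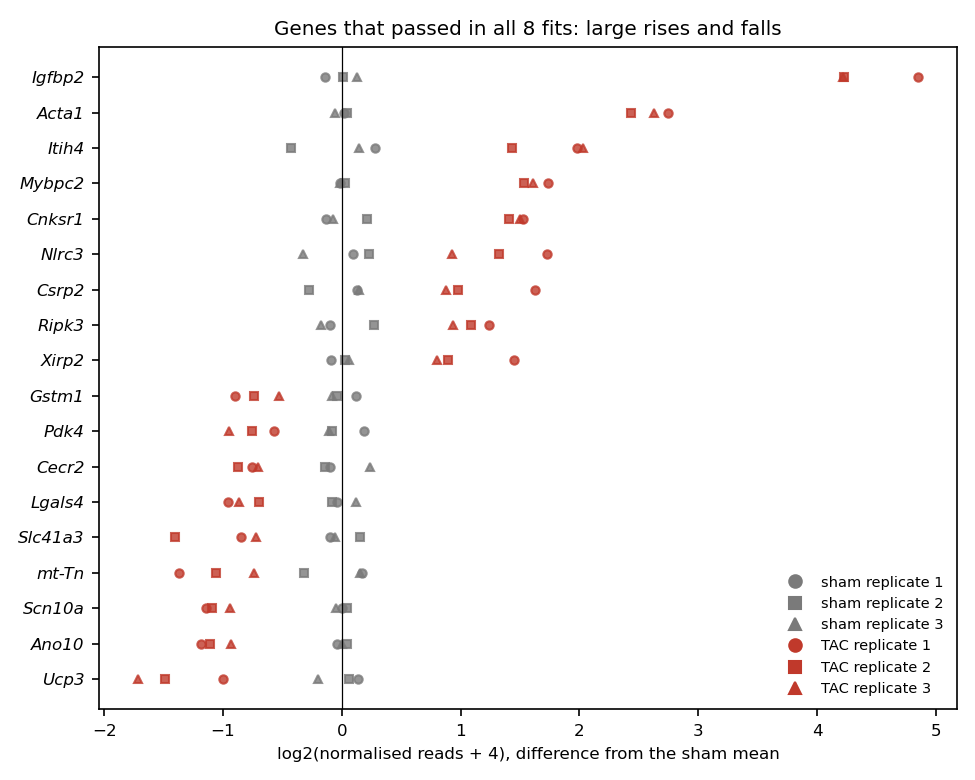
Difference of log2(normalised reads + 4) from the sham mean (horizontal axis) in each library for genes with large rises or falls in the core outside cell division and matrix genes (vertical axis), with grey points for sham and red points for TAC. The genes were chosen among those whose sham and TAC points do not overlap. Igfbp2, Csrp2 and Xirp2 are among those highest in TAC replicate 1.

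Genes of load and of the fetal and skeletal muscle programme gave rises and no fall. Of 29 tested, 13 rose and 0 fell, with a median of 0.47 against 0.00 over all genes tested. The list medians were 0.68, 0.43 and 0.36 in TAC replicates 1 to 3, and the 29 changes ran from -0.35 to 2.61. The rises numbered 7, 12 and 7 without sham replicates 1, 2 and 3, 11, 10 and 14 without TAC replicates 1, 2 and 3, and 16 without both TAC replicates 2 and 3, where 1 member fell. Besides the 13, 6 more were higher and 1 lower at an unadjusted p under 0.05. Acta1 (chr8:123891769-123894751 on GRCm38), the skeletal muscle actin, had 10930.3, 11118 and 10366 normalised reads in sham replicates 1 to 3 and 72645, 58440.2 and 66950.2 in TAC replicates 1 to 3. Every TAC library was several-fold above every sham library (log2 2.61 ± 0.09, adjusted p = 1.56e-06). Mybpc2 (chr7:44501699-44524656), the myosin-binding protein C of fast skeletal muscle, held 894, 918 and 893 in the sham libraries and 3014, 2619 and 2768 in the TAC libraries (log2 1.63 ± 0.07, adjusted p = 1.07e-05), and its TAC libraries lay close together. Myl1, a myosin light chain of fast skeletal and fetal muscle, had 956, 941 and 1099 in the sham libraries and 1611, 1487 and 1569.8 in the TAC libraries (log2 0.64 ± 0.08, adjusted p = 0.0051). Xirp2, an actin-binding protein of intercalated discs, held 13671, 14828 and 15206 in the sham libraries and 39877, 27059 and 25345 in the TAC libraries (log2 1.05 ± 0.15, adjusted p = 0.00791), with TAC replicate 1 well above the other two. Nrap, which anchors actin during myofibril assembly, rose (log2 0.51 ± 0.08, adjusted p = 0.00928), as did the titin-binding protein gene Ankrd23 (log2 0.62 ± 0.11, adjusted p = 0.0161). These 6 genes were in the core.

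The other 7 members that rose depended on single libraries. Ankrd1, a stress-induced titin-binding protein and cofactor of transcription, had 30798, 48469 and 41015 in the sham libraries and 131405, 82069 and 74139.6 in the TAC libraries (log2 1.24 ± 0.22, adjusted p = 0.0162). Synpo2l, a Z-disc protein, held 4503, 4854 and 4727 in the sham libraries and 12891, 8598 and 7406 in the TAC libraries (log2 1.00 ± 0.17, adjusted p = 0.0137). Nppb, which encodes B-type natriuretic peptide, varied widely among sham hearts, with 2361, 6889 and 4419 in the sham libraries and 14722, 12561 and 9866 in the TAC libraries (log2 1.55 ± 0.32, adjusted p = 0.0257). Myh7 (0.63 ± 0.12), Hspb7 (0.39 ± 0.08), Des (0.47 ± 0.11) and Flnc (0.63 ± 0.15) made up the rest. The calls of Ankrd1 and Myh7 were lost on omitting sham replicate 1 or 3 (adjusted p = 0.0518 to 0.0771). The call of Synpo2l was lost on omitting sham replicate 1 (adjusted p = 0.0518). The call of Nppb was lost on omitting sham replicate 3 or TAC replicate 1 or 2 (adjusted p = 0.068 to 0.0842). The call of Hspb7 was lost on omitting any 1 sham library or TAC replicate 2 or 3 (adjusted p = 0.0517 to 0.109). The call of Des was lost on omitting any 1 sham library or TAC replicate 1 or 3 (adjusted p = 0.056 to 0.138). The call of Flnc was lost on omitting sham replicate 1 or 3 or TAC replicate 1 or 2 (adjusted p = 0.0797 to 0.139). Nppb and Hspb7 did not pass on omitting TAC replicates 2 and 3 together (adjusted p = 0.0514 and 0.0857). Nppa, the atrial peptide gene, had 6753, 13485 and 7726 in the sham libraries and 38852, 16870.3 and 16569 in the TAC libraries and did not pass (log2 1.32 ± 0.33, adjusted p = 0.0541). Its sham and TAC libraries did not overlap, as for 14.5% of all genes tested with TAC higher, and its TAC replicate 1 lay far above the other TAC libraries. It passed without sham replicate 2 (1.62, adjusted p = 0.0361), without TAC replicate 3 (1.53, adjusted p = 0.0474) and without both TAC replicates 2 and 3 (2.13, adjusted p = 0.00773). Atrial markers, 0 of 8 of which passed, summed to 399 to 778 CPM in sham libraries and to 1615, 889 and 752 CPM in TAC replicates 1 to 3. Nppa is itself among these 8, so the sum includes its own reads. The part of atrial cells in the Nppa values was not tested. Myh6 (-0.06 ± 0.18), the adult myosin heavy chain, and Gdf15, a stress hormone of the TGF-beta family (0.24 ± 0.30), did not pass either (adjusted p = 0.87 and 0.68).

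The 250 bases before the start site are shown for 5 of the genes that rose, because several share the letters CATTCC, known as the M-CAT element that TEAD factors can bind. Sequences are from RefSeq on GRCm38.p6, 5′ to 3′ on the gene's own strand, and capitals mark CATTCC or its reverse complement GGAATG. The search was chosen after the gene values were seen.
Acta1 promoter (chr8:123894776-123895025, minus strand): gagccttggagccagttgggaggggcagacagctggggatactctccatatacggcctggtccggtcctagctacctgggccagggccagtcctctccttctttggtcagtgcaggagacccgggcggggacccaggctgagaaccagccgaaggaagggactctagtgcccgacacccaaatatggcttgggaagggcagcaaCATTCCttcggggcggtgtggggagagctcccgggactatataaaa
Mybpc2 promoter (chr7:44524670-44524919, minus strand): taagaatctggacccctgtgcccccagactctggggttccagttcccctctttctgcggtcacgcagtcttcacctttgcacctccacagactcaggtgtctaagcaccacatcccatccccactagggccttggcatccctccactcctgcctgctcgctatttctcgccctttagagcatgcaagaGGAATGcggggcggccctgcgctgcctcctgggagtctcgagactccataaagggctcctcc
Myl1 promoter (chr1:66945057-66945306, minus strand): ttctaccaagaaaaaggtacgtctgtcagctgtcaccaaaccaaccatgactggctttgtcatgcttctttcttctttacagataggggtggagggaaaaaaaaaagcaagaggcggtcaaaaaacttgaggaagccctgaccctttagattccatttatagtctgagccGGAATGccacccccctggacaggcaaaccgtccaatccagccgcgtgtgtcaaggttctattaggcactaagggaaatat
Ankrd1 promoter (chr19:36119845-36120094, minus strand): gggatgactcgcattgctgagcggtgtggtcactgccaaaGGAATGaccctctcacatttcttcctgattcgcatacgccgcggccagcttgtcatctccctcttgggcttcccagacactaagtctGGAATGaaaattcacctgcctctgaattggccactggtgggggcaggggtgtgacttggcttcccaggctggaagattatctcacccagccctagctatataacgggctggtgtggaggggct
Nppb promoter (chr4:147985650-147985899, plus strand): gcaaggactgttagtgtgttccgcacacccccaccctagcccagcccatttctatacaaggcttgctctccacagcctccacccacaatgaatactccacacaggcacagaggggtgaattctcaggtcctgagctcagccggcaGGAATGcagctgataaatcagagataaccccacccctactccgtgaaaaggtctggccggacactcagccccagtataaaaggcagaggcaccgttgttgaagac
In Acta1 the element starts 46 bases before the start site, and a CArG box, the letter pattern that serum response factor can bind, starts 73 bases before it. It starts 62 bases before the start site in Mybpc2, 80 in Myl1 and 105 in Nppb, and Ankrd1 holds 2 copies, the first of them 210 bases before it. Among the load list, 8 of the 13 genes that rose held CATTCC on either strand in a 250-base window (61.5%), as did 2 of the 14 other members with a window (14.3%). Over all 27025 genes with a window it was 14.4%. Counted by windows, since some genes have several start sites, the shares were 47.1%, 10.5% and 12.6%. The CArG pattern, with 6 A or T letters between CC and GG, stood in 5.88% of the windows of genes that rose, 26.3% of those of other members and 1.47% of all windows. A match is a description of letters, and no binding was measured.

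Adult sarcomere genes were mixed, with 4 that rose and 1 that fell of 22 and a median of -0.02. Sarcomere rises numbered 1, 1 and 2 without sham replicates 1, 2 and 3, 2, 2 and 2 without TAC replicates 1, 2 and 3, and 1 without both TAC replicates 2 and 3. Myot, a Z-disc protein (log2 0.65 ± 0.11, adjusted p = 0.0144), Pdlim5 (0.48 ± 0.09), Tnnc1, the calcium sensor of the thin filament (0.34 ± 0.08), and Actn2 (0.33 ± 0.08) rose, and the M-band protein gene Myom2 fell (-0.34 ± 0.07). The call of Pdlim5 was lost on omitting sham replicate 1 or 2 (adjusted p = 0.0504 and 0.0737). The calls of Tnnc1 and Actn2 were lost on omitting any 1 library (adjusted p = 0.0511 to 0.147). The call of Myom2 was lost on omitting any 1 sham library or TAC replicate 2 (adjusted p = 0.0526 to 0.0812). Myot, Tnnc1, Actn2 and Myom2 did not pass on omitting TAC replicates 2 and 3 together (adjusted p = 0.0598 to 0.107).

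Growth factor binding genes included the largest rise of all. Igfbp2 (chr1:72824503-72852474), which binds insulin-like growth factors, went from 3, 4 and 5 reads in the sham libraries to 303, 159 and 173 reads in the TAC libraries. In normalised reads the ratio of means was 40.7, and the fit gave log2 4.43 ± 0.26, adjusted p = 0.000121. Igfbp7, a secreted relative, had 4761, 4796 and 3627 in the sham libraries and 9479, 7778 and 8069 in the TAC libraries (log2 0.95 ± 0.12, adjusted p = 0.00465). Both were in the core. Of 24 genes of IGF and insulin signalling 4 rose and 1 fell, with a median of 0.05. The IGF and insulin rises numbered 2, 3 and 3 without sham replicates 1, 2 and 3, 3, 3 and 3 without TAC replicates 1, 2 and 3, and 3 without both TAC replicates 2 and 3. The others were the adaptor Grb10 (0.41 ± 0.07) and the kinase gene Akt1 (0.27 ± 0.07), which rose, and Akt2 (-0.29 ± 0.06), which fell. The call of Grb10 was lost on omitting sham replicate 1 (adjusted p = 0.0518). The calls of Akt1 and Akt2 were lost on omitting any 1 library (adjusted p = 0.0525 to 0.138). Grb10 and Akt1 did not pass on omitting TAC replicates 2 and 3 together (adjusted p = 0.0894 and 0.106).

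In the TGF-beta and BMP list 7 of 44 rose and 1 fell, with a median of 0.09. Rises in that list numbered 2, 4 and 2 without sham replicates 1, 2 and 3, 4, 5 and 7 without TAC replicates 1, 2 and 3, and 8 without both TAC replicates 2 and 3. Ltbp2, a latent TGF-beta binding protein of microfibrils, was in the core, with 228, 266 and 229 in the sham libraries and 1414, 686 and 609 in the TAC libraries (log2 1.79 ± 0.26, adjusted p = 0.00918). Fstl1, a secreted follistatin-like protein, had 3332, 3361 and 3700.4 in the sham libraries and 11533, 6084 and 6496 in the TAC libraries (log2 1.15 ± 0.20, adjusted p = 0.0157). Inhba, the activin subunit (1.33 ± 0.24), and Gdf6 (1.63 ± 0.34) rose from low levels, and the fall was that of Bmp6 (-0.52 ± 0.12). The call of Fstl1 was lost on omitting sham replicate 1 (adjusted p = 0.0555). The call of Inhba was lost on omitting sham replicate 3 or TAC replicate 1 or 2 (adjusted p = 0.0559 to 0.0634). The call of Gdf6 was lost on omitting any 1 sham library (adjusted p = 0.0533 to 0.0951). The call of Bmp6 was lost on omitting any 1 sham library or TAC replicate 1 or 2 (adjusted p = 0.0526 to 0.118). Inhba and Bmp6 did not pass on omitting TAC replicates 2 and 3 together (adjusted p = 0.0555 and 0.0821).

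With all 6 libraries 0% of Wnt genes and 4.17% of Hippo genes were called, where 5.34% of all genes tested were. Lists this short hold few calls at that share. In the receptor tyrosine kinase list 10% rose and 10% fell. Wnt genes had 0 of 35 past the threshold, with Frzb, a secreted Wnt antagonist, the nearest (0.81 ± 0.24, adjusted p = 0.0847). At an unadjusted p under 0.05, 5 Wnt genes were higher and 2 lower, and edgeR called 0 and DESeq2 2, both higher. Wnt rises numbered 0, 0 and 0 without sham replicates 1, 2 and 3, 0, 0 and 2 without TAC replicates 1, 2 and 3, and 4 without both TAC replicates 2 and 3. Frzb passed without both TAC replicates 2 and 3 (1.33, adjusted p = 0.0304). Of 24 Hippo pathway genes only Amotl2, a junction protein that binds YAP, passed, and it fell in the core, with 2548, 2591 and 2758 in the sham libraries and 1582, 1788 and 1735 in the TAC libraries (log2 -0.63 ± 0.07, adjusted p = 0.0036). Receptor tyrosine kinase ligands, receptors and their targets had 4 rises and 4 falls among 40. Their rises numbered 1, 3 and 2 without sham replicates 1, 2 and 3, 2, 0 and 2 without TAC replicates 1, 2 and 3, and 3 without both TAC replicates 2 and 3. Their falls numbered 0, 2 and 1 without sham replicates 1, 2 and 3, 3, 1 and 1 without TAC replicates 1, 2 and 3, and 0 without both TAC replicates 2 and 3. Hbegf, an EGF receptor ligand (0.75 ± 0.13), Etv4, a transcription factor induced by FGF signals (1.76 ± 0.31), Pdgfb (0.51 ± 0.11) and the low-expressed Fgf6 rose. Fgf16 (-0.54 ± 0.09), Fgf1 (-0.34 ± 0.06), the fibroblast receptor Pdgfra (-0.38 ± 0.08) and Nrg1, the endothelial ligand of ERBB4 (-1.16 ± 0.28), fell. The calls of Hbegf, Etv4, Fgf6, Fgf16, Fgf1, Pdgfra and Nrg1 were lost on omitting sham replicate 1 (adjusted p = 0.0528 to 0.136). The calls of Fgf6, Pdgfra and Nrg1 were lost on omitting sham replicate 2 (adjusted p = 0.0559 to 0.0765). The calls of Hbegf, Fgf6, Fgf1, Pdgfra and Nrg1 were lost on omitting sham replicate 3 (adjusted p = 0.0505 to 0.129). The calls of Pdgfb, Fgf6 and Nrg1 were lost on omitting TAC replicate 1 (adjusted p = 0.051 to 0.0863). The calls of Hbegf, Etv4, Pdgfb, Fgf6, Fgf1, Pdgfra and Nrg1 were lost on omitting TAC replicate 2 (adjusted p = 0.0513 to 0.111). The calls of Pdgfb, Fgf6, Fgf1, Pdgfra and Nrg1 were lost on omitting TAC replicate 3 (adjusted p = 0.0516 to 0.0955). Pdgfb, Fgf6, Fgf16, Fgf1, Pdgfra and Nrg1 did not pass on omitting TAC replicates 2 and 3 together (adjusted p = 0.055 to 0.255).

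In the renin-angiotensin and endothelin list, Ace rose in the core and Edn3 rose, of 20 tested. The list's median was -0.14, and 7 of 20 had a positive change. At an unadjusted p under 0.05, 2 were higher and 6 lower. Ace, the enzyme that makes angiotensin II, held 2508, 2452 and 2320.4 in the sham libraries and 3931, 3466 and 3618 in the TAC libraries (log2 0.60 ± 0.07, adjusted p = 0.00373), with no overlap. Edn3, an endothelin, was low, with 41.4, 21.6 and 64.2 in the sham libraries and 101, 128 and 196 in the TAC libraries (log2 1.71 ± 0.36, adjusted p = 0.0297). Agt, the angiotensin precursor, did not pass (0.22 ± 0.24, adjusted p = 0.64). Gnao1, a G protein subunit that was in the core (log2 0.51 ± 0.08, adjusted p = 0.0101), and the adenylyl cyclase Adcy7 (log2 0.57 ± 0.12, adjusted p = 0.0262) were the 2 rises of 34 adrenergic and cyclic AMP genes. Pde2a, a phosphodiesterase stimulated by cyclic GMP, fell (log2 -0.48 ± 0.10, adjusted p = 0.0308) and was the 1 call among 14 genes of the natriuretic system. The call of Edn3 was lost on omitting sham replicate 1 or 2 or TAC replicate 2 or 3 (adjusted p = 0.0512 to 0.0806). The call of Adcy7 was lost on omitting sham replicate 1 or 2 or TAC replicate 1 or 2 (adjusted p = 0.0629 to 0.0904). The call of Pde2a was lost on omitting any 1 library (adjusted p = 0.0592 to 0.104). Edn3 and Pde2a did not pass on omitting TAC replicates 2 and 3 together (adjusted p = 0.0856 and 0.201).

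Electrical and calcium genes gave calls in both directions. Of 41 calcium handling genes, Casq1, the calsequestrin of fast skeletal muscle, had 400.4, 339 and 336 in the sham libraries and 639, 609 and 579.8 in the TAC libraries (log2 0.76 ± 0.10, adjusted p = 0.00609) and was in the core. Srl, a calcium-binding protein of the sarcoplasmic reticulum, also rose (log2 0.38 ± 0.07, adjusted p = 0.021). These 2 rises were 4.88% of the list, where 3.4% of all genes tested rose. Casq2, the cardiac calsequestrin, (0.15 ± 0.08, adjusted p = 0.281) did not pass, and neither did the calcium pump gene Atp2a2 (-0.31 ± 0.13, adjusted p = 0.185) or the release channel gene Ryr2 (-0.21 ± 0.09, adjusted p = 0.182). The TAC libraries lay below the sham libraries for Atp2a2 and Ryr2, as for 13.6% of all genes tested. By DESeq2 Atp2a2 passed (adjusted p = 0.00289), and by edgeR it did not (adjusted p = 0.0685). All 3 potassium channel genes called, of 30, were subunits of the ATP-sensitive channel. Abcc9, its sulfonylurea receptor, was in the core, with 10566, 11026 and 10579.6 in the sham libraries and 6567, 8273 and 7822 in the TAC libraries (log2 -0.51 ± 0.09, adjusted p = 0.0137), and the pore genes Kcnj8 (-0.36 ± 0.08) and Kcnj11 (-0.23 ± 0.06) also fell. Potassium channel falls numbered 1, 2 and 1 without sham replicates 1, 2 and 3, 1, 1 and 3 without TAC replicates 1, 2 and 3, and 4 without both TAC replicates 2 and 3. Abcc9 and Kcnj8 are also pericyte markers, and they were the 2 that fell among 10 smooth muscle and pericyte markers. Of these 10, 2 rose and 7 had a positive change. Their sum, which includes Abcc9 and Kcnj8, was 1236 to 1336 CPM in sham and 1159 to 1304 CPM in TAC libraries. Scn10a, a sodium channel known from sensory neurons, fell in the core, with 108, 111 and 104 in the sham libraries and 46.7, 48.6 and 54.2 in the TAC libraries (log2 -1.06 ± 0.17, adjusted p = 0.0133). Of 31 sodium channel, connexin and desmosome genes 3 rose and 3 fell. The rises of this list numbered 1, 1 and 1 without sham replicates 1, 2 and 3, 1, 3 and 2 without TAC replicates 1, 2 and 3, and 4 without both TAC replicates 2 and 3. The falls of this list numbered 1, 1 and 1 without sham replicates 1, 2 and 3, 1, 2 and 2 without TAC replicates 1, 2 and 3, and 5 without both TAC replicates 2 and 3. Among them Xirp2 and Pkp2 (0.27 ± 0.06) rose and Scn10a, Dsg2 (-0.38 ± 0.08) and Clcn1 (-0.61 ± 0.14) fell. The call of Srl was lost on omitting sham replicate 1 or 2 or TAC replicate 2 (adjusted p = 0.0501 to 0.0871). The calls of Kcnj8 and Clcn1 were lost on omitting any 1 sham library or TAC replicate 1 or 2 (adjusted p = 0.0507 to 0.104). The calls of Kcnj11 and Pkp2 were lost on omitting any 1 library (adjusted p = 0.0507 to 0.147). The call of Dsg2 was lost on omitting any 1 sham library or TAC replicate 1 or 3 (adjusted p = 0.0566 to 0.0786). Kcnj11 and Pkp2 did not pass on omitting TAC replicates 2 and 3 together (adjusted p = 0.0575 and 0.104).

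Genes of fat burning gave falls and no rise. Of 35 fatty acid oxidation genes 11 fell and 0 rose, with a median of -0.32, and of 21 PPAR-responsive fuel genes 8 fell and 0 rose, with a median of -0.44. The fatty acid medians were -0.45, -0.27 and -0.23 and the PPAR medians -0.49, -0.47 and -0.36 in TAC replicates 1 to 3. The falls of the fatty acid list numbered 1, 11 and 3 without sham replicates 1, 2 and 3, 6, 4 and 6 without TAC replicates 1, 2 and 3, and 12 without both TAC replicates 2 and 3. At an unadjusted p under 0.05, 28 of its genes were lower and 1 higher. Those of the PPAR list numbered 4, 8 and 5 without sham replicates 1, 2 and 3, 6, 6 and 8 without TAC replicates 1, 2 and 3, and 10 without both TAC replicates 2 and 3. Ucp3 (chr7:100472990-100486432), a carrier of the inner mitochondrial membrane, had 4737, 4515 and 3765 normalised reads in sham replicates 1 to 3 and 2161, 1541 and 1314 in TAC replicates 1 to 3 (log2 -1.40 ± 0.16, adjusted p = 0.00378). Here TAC replicate 1 was the least changed of the TAC libraries. Pdk4, the kinase that keeps pyruvate out of mitochondria when fat is burned, had 33252, 27642 and 27168 in the sham libraries and 19653, 17325 and 15164 in the TAC libraries (log2 -0.76 ± 0.11, adjusted p = 0.00835). Slc25a34, a mitochondrial carrier, held 7336, 6077 and 7781 in the sham libraries and 4067, 4750.3 and 4672 in the TAC libraries (log2 -0.65 ± 0.10, adjusted p = 0.0102), and Pex11a, which drives peroxisome division, fell too (log2 -0.51 ± 0.08, adjusted p = 0.0135). These 4 genes were in the core, which held 0 of the 35 fatty acid oxidation genes.

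Transcripts of genes for the entry of fatty acids into the cell and the mitochondrion were among those that fell. Entry itself was not measured. Slc27a1, a fatty acid transporter, had 9645, 8922 and 10187 in the sham libraries and 7158, 7168 and 6916 in the TAC libraries (log2 -0.43 ± 0.07, adjusted p = 0.00968). Cpt1b, the muscle carnitine palmitoyltransferase, held 5756, 5222 and 5770.5 in the sham libraries and 3657, 4128 and 4301 in the TAC libraries (log2 -0.47 ± 0.08, adjusted p = 0.0132). Slc22a5, which imports carnitine (-0.45 ± 0.08), Cpt1a (-0.51 ± 0.10) and the fatty acid translocase Cd36 (-0.39 ± 0.09) fell as well. The fatty acid carrier Fabp3 (-0.13 ± 0.09, adjusted p = 0.43) and the long-chain dehydrogenase Acadl (-0.15 ± 0.08, adjusted p = 0.327) did not pass. Neither did Ppara itself (0.04 ± 0.14, adjusted p = 0.907) or its coactivator Ppargc1a (0.26 ± 0.12, adjusted p = 0.222), which passed without TAC replicate 1 (0.40, adjusted p = 0.0421). The call of Cpt1b was lost on omitting sham replicate 1 (adjusted p = 0.0511). The call of Slc22a5 was lost on omitting sham replicate 1 or 3 (adjusted p = 0.0537). The call of Cpt1a was lost on omitting sham replicate 1 or TAC replicate 2 or 3 (adjusted p = 0.0501 to 0.0739). The call of Cd36 was lost on omitting sham replicate 1 or 3 or any 1 TAC library (adjusted p = 0.0687 to 0.105). Slc27a1, Cpt1a and Cd36 did not pass on omitting TAC replicates 2 and 3 together (adjusted p = 0.0507 to 0.129). Among 26 genes of lipid droplets and lipolysis 3 fell: Lipe, hormone-sensitive lipase, which was in the core with 2437, 2554 and 2534 in the sham libraries and 1825, 1686 and 1832 in the TAC libraries (log2 -0.49 ± 0.06, adjusted p = 0.00539), Ces1d (-0.82 ± 0.15) and Agpat3 (-0.30 ± 0.07). The call of Ces1d was lost on omitting sham replicate 1 or 3 (adjusted p = 0.0639 and 0.0661). The call of Agpat3 was lost on omitting sham replicate 1 or 3 or any 1 TAC library (adjusted p = 0.051 to 0.124). Agpat3 did not pass on omitting TAC replicates 2 and 3 together (adjusted p = 0.0819). Lipid droplet falls numbered 1, 3 and 1 without sham replicates 1, 2 and 3, 2, 3 and 3 without TAC replicates 1, 2 and 3, and 4 without both TAC replicates 2 and 3. Adipocyte markers, 0 of 6 called, summed to 9.58 to 10.04 CPM in sham libraries and to 27.8, 7.86 and 14.7 CPM in TAC replicates 1 to 3.

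**Figure D4:**
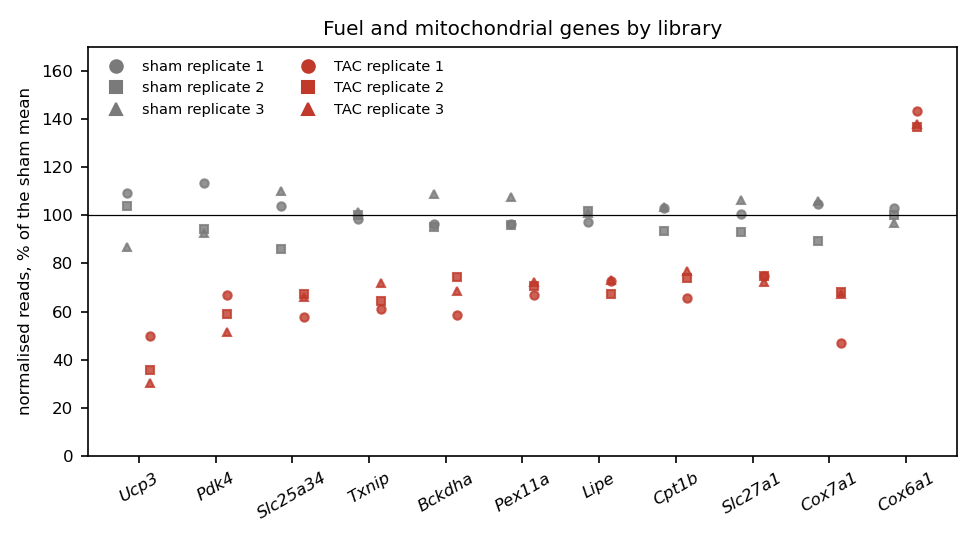
Normalised reads as a percentage of the sham mean (vertical axis, from 0) for 11 fuel and mitochondrial genes (horizontal axis), with 1 point per library, grey for sham and red for TAC. For each gene the TAC and sham libraries do not overlap, with 10 genes lower and Cox6a1 higher in TAC, and Ucp3 is lowest in TAC replicate 3.

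Regulators of fuel use gave 2 rises and 3 falls among 39. Txnip, an arrestin-family protein that limits glucose uptake and binds thioredoxin, was in the core, with 34087, 34751 and 35209.8 in the sham libraries and 21235, 22296 and 24896 in the TAC libraries (log2 -0.61 ± 0.07, adjusted p = 0.00468). Klf2, a transcription factor best known from endothelium, rose in the core, with 1384, 1664 and 1759 in the sham libraries and 2486, 2658 and 2452 in the TAC libraries (log2 0.67 ± 0.09, adjusted p = 0.0075). Dio2, which activates thyroid hormone, rose from a low level (log2 1.39 ± 0.27, adjusted p = 0.0211), and Klf10 (-0.55 ± 0.12) and the clock repressor Nr1d1 (-0.58 ± 0.13) fell. The call of Dio2 was lost on omitting sham replicate 3 or TAC replicate 1 or 2 (adjusted p = 0.0618 to 0.0725). The call of Klf10 was lost on omitting sham replicate 1 or 2 or TAC replicate 2 or 3 (adjusted p = 0.0586 to 0.0904). The call of Nr1d1 was lost on omitting any 1 sham library or TAC replicate 1 or 2 (adjusted p = 0.0571 to 0.115). Klf10 did not pass on omitting TAC replicates 2 and 3 together (adjusted p = 0.196).

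Nuclear genes of the respiratory chain had 7 falls and 1 rise among 46, with a median of -0.22 and medians of -0.33, -0.19 and -0.14 in TAC replicates 1 to 3. The falls numbered 0, 15 and 0 without sham replicates 1, 2 and 3, 1, 1 and 7 without TAC replicates 1, 2 and 3, and 8 without both TAC replicates 2 and 3. Sham replicate 2 lay lowest of the sham libraries for this list, with a median of -0.14. At an unadjusted p under 0.05, 26 genes were lower and 1 higher. Cox6a1, the isoform of most tissues, rose in the core, with 3660.5, 3548 and 3439.6 in the sham libraries and 5085, 4849 and 4896 in the TAC libraries (log2 0.48 ± 0.06, adjusted p = 0.00455). Cox6a2, the heart and muscle isoform, had 55422, 42520.5 and 52979 in the sham libraries and 31471, 39014 and 40787 in the TAC libraries and did not pass (-0.44 ± 0.13, adjusted p = 0.0748). As for 13.6% of all genes tested, its TAC libraries lay below every sham library. It passed without sham replicate 2 (-0.56, adjusted p = 0.04) and without both TAC replicates 2 and 3 (-0.67, adjusted p = 0.0446). Cox7a1, another heart and muscle isoform, fell, with 28869, 24617 and 29268 in the sham libraries and 12927, 18782 and 18606 in the TAC libraries (log2 -0.73 ± 0.14, adjusted p = 0.0204), as did Cox5a (-0.41 ± 0.08) and Cox6c (-0.49 ± 0.10). The call of Cox7a1 was lost on omitting sham replicate 1 or 3 (adjusted p = 0.0701 and 0.0753). The calls of Cox5a and Cox6c were lost on omitting sham replicate 1 or 3 or TAC replicate 1 or 2 (adjusted p = 0.065 to 0.0952). Cox6c did not pass on omitting TAC replicates 2 and 3 together (adjusted p = 0.0522).

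Glycolysis and glycogen genes had 2 rises (4%) and 1 fall (2%) among 50 and a median of 0.03. Over all genes tested 3.4% rose and 1.94% fell. Pfkfb1, which makes the activator of phosphofructokinase, fell in the core, with 656, 611 and 743 in the sham libraries and 406, 446 and 463 in the TAC libraries (log2 -0.60 ± 0.10, adjusted p = 0.0139). The phosphofructokinase gene Pfkp (0.56 ± 0.12) and the phosphorylase kinase subunit Phka1 (0.35 ± 0.08) rose. Of 23 ketone, creatine and adenylate genes, Slc22a5 and the mitochondrial adenylate kinase Ak4 (-0.51 ± 0.10) fell. The call of Pfkp was lost on omitting any 1 sham library (adjusted p = 0.069 to 0.0984). The call of Phka1 was lost on omitting any 1 sham library or TAC replicate 1 or 2 (adjusted p = 0.0655 to 0.104). The call of Ak4 was lost on omitting sham replicate 1 or 3 or TAC replicate 1 or 2 (adjusted p = 0.0559 to 0.0822). Phka1 did not pass on omitting TAC replicates 2 and 3 together (adjusted p = 0.0668).

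The enzymes that break down the dietary BCAA and propionate had 0 rises and 2 falls among 30, with a positive change in 4 of 30 and a median of -0.20. The falls numbered 1, 1 and 1 without sham replicates 1, 2 and 3, 1, 1 and 4 without TAC replicates 1, 2 and 3, and 8 without both TAC replicates 2 and 3. Bckdha, the E1 subunit of the complex that commits BCAA to breakdown, was in the core, with 4607, 4540.2 and 5197 in the sham libraries and 2801, 3549.9 and 3282 in the TAC libraries (log2 -0.58 ± 0.09, adjusted p = 0.0131). Mut, the mutase that carries propionate carbon into the citric acid cycle, had 3292, 3351 and 3506 in the sham libraries and 2491, 2826 and 2906 in the TAC libraries (log2 -0.31 ± 0.07, adjusted p = 0.0432). The call of Mut was lost on omitting any 1 sham library or TAC replicate 1 or 2 (adjusted p = 0.0804 to 0.122). The other E1 subunit Bckdhb (-0.22 ± 0.09, adjusted p = 0.166), the E2 subunit Dbt (-0.23 ± 0.09, adjusted p = 0.143) and the phosphatase Ppm1k (-0.20 ± 0.09, adjusted p = 0.208) did not pass. None of the 3 overlapped between groups, with TAC lower, as for 13.6% of all genes tested. The kinase Bckdk (-0.07 ± 0.06, adjusted p = 0.527) and the transaminase Bcat2 (-0.12 ± 0.09, adjusted p = 0.463) overlapped.

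In the other direction, genes that make serine, folate intermediates and proline rose in 5 of 30 cases, with 0 falls (0 also at an unadjusted p under 0.05) and a median of 0.19. Rises among the 30 numbered 4, 2 and 2 without sham replicates 1, 2 and 3, 1, 3 and 5 without TAC replicates 1, 2 and 3, and 7 without both TAC replicates 2 and 3. Tyms, which makes thymidylate, was in the core, with 58.4, 68.1 and 64.2 in the sham libraries and 154, 149 and 119 in the TAC libraries (log2 1.09 ± 0.17, adjusted p = 0.0119), and it also serves DNA replication. Mthfd2 had 239.7, 78.3 and 110.4 in the sham libraries and 618, 388 and 479 in the TAC libraries (log2 1.89 ± 0.34, adjusted p = 0.0176). Pycr1 (1.01 ± 0.21) and Psat1 (0.91 ± 0.20), of proline and serine synthesis, and glutamine synthetase Glul (0.37 ± 0.09) were the others. In the ATF4 target list 4 rose and 2 fell of 27, with a median of 0.17. ATF4 target rises numbered 2, 2 and 1 without sham replicates 1, 2 and 3, 1, 1 and 3 without TAC replicates 1, 2 and 3, and 2 without both TAC replicates 2 and 3. Eif4ebp1, a repressor of translation (log2 0.45 ± 0.08, adjusted p = 0.0188), Cebpb (1.49 ± 0.30) and the amino acid carriers Slc7a5 (0.65 ± 0.15) and Slc1a4 (0.94 ± 0.23) rose, and Slc7a1 (-0.52 ± 0.12) and Vldlr (-0.44 ± 0.10) fell. The calls of Pycr1, Psat1, Slc7a5, Slc1a4, Slc7a1 and Vldlr were lost on omitting sham replicate 1 (adjusted p = 0.0773 to 0.141). The calls of Pycr1, Psat1, Glul, Cebpb, Slc1a4 and Vldlr were lost on omitting sham replicate 2 (adjusted p = 0.0512 to 0.0999). The calls of Mthfd2, Pycr1, Glul, Eif4ebp1, Slc7a5, Slc1a4 and Vldlr were lost on omitting sham replicate 3 (adjusted p = 0.0618 to 0.128). The calls of Mthfd2, Pycr1, Psat1, Glul, Cebpb, Slc7a5, Slc1a4, Slc7a1 and Vldlr were lost on omitting TAC replicate 1 (adjusted p = 0.0581 to 0.133). The calls of Psat1, Glul, Cebpb, Slc7a5, Slc1a4 and Slc7a1 were lost on omitting TAC replicate 2 (adjusted p = 0.0561 to 0.0954). The calls of Pycr1, Glul, Cebpb, Slc7a1 and Vldlr were lost on omitting TAC replicate 3 (adjusted p = 0.0558 to 0.103). Glul, Cebpb, Slc7a5 and Slc7a1 did not pass on omitting TAC replicates 2 and 3 together (adjusted p = 0.053 to 0.158).

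Chaperone, ribosome and protein turnover lists had 0 to 3 calls in each direction. Hspb6, a small heat shock protein of muscle, rose in the core, with 22299, 22243 and 23145 in the sham libraries and 36698, 34187 and 35959 in the TAC libraries (log2 0.66 ± 0.06, adjusted p = 0.00249). With Hspb7 and Fkbp5 (1.05 ± 0.24) it made 3 rises of 34 cytosolic chaperone genes. Of 33 chaperones of the endoplasmic reticulum, Rcn3 (0.70 ± 0.12) and Edem1 (0.42 ± 0.10) rose. Rrp12 (0.60 ± 0.13) was the 1 rise of 40 ribosome biogenesis genes. Fbxo32, the muscle ubiquitin ligase atrogin (-0.34 ± 0.07), and the autophagy gene Map1lc3b (-0.28 ± 0.06) were the 2 falls of 35 atrophy and autophagy genes. The calls of Hspb7, Rcn3, Edem1, Rrp12, Fbxo32 and Map1lc3b were lost on omitting sham replicate 1 (adjusted p = 0.0528 to 0.135). The calls of Hspb7, Fkbp5, Edem1 and Fbxo32 were lost on omitting sham replicate 2 (adjusted p = 0.0521 to 0.092). The calls of Hspb7, Fkbp5, Rcn3, Rrp12, Fbxo32 and Map1lc3b were lost on omitting sham replicate 3 (adjusted p = 0.051 to 0.117). The calls of Fkbp5, Edem1, Rrp12, Fbxo32 and Map1lc3b were lost on omitting TAC replicate 1 (adjusted p = 0.0647 to 0.116). The calls of Hspb7, Fkbp5, Edem1, Rrp12, Fbxo32 and Map1lc3b were lost on omitting TAC replicate 2 (adjusted p = 0.0751 to 0.101). The calls of Hspb7, Fkbp5, Edem1 and Map1lc3b were lost on omitting TAC replicate 3 (adjusted p = 0.0514 to 0.0872). Hspb7, Fkbp5, Edem1 and Map1lc3b did not pass on omitting TAC replicates 2 and 3 together (adjusted p = 0.0594 to 0.149).

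Antioxidant and glutathione genes had 10 falls and 1 rise among 48 and a median of -0.15, and 16 of 48 had a positive change. At an unadjusted p under 0.05, 20 were lower and 7 higher. Antioxidant rises numbered 0, 0 and 0 without sham replicates 1, 2 and 3, 0, 1 and 0 without TAC replicates 1, 2 and 3, and 4 without both TAC replicates 2 and 3. The falls numbered 4, 8 and 4 without sham replicates 1, 2 and 3, 4, 4 and 8 without TAC replicates 1, 2 and 3, and 6 without both TAC replicates 2 and 3. Gstm1, a glutathione transferase, had 7036, 6281 and 6130.2 in the sham libraries and 3464, 3870.4 and 4476 in the TAC libraries (log2 -0.72 ± 0.10, adjusted p = 0.00609), and Gstm2 had 2762, 2783 and 2873 in the sham libraries and 1984, 1989 and 2128 in the TAC libraries (log2 -0.46 ± 0.06, adjusted p = 0.00601). Both were in the core, as was Txnip. These transferases are close copies of each other, so reads may be shared among them, and Gstm5 (-0.45 ± 0.09) and Gstm7 (-0.49 ± 0.10) fell as well. Gsta4, which clears lipid peroxidation products (-0.36 ± 0.07), catalase (Cat, -0.35 ± 0.07) and Prdx1 (-0.32 ± 0.07) also fell, and the extracellular dismutase Sod3 rose (0.38 ± 0.08). The calls of Gstm5, Gsta4, Cat, Prdx1 and Sod3 were lost on omitting sham replicate 1 (adjusted p = 0.0732 to 0.116). The calls of Gstm7, Cat and Sod3 were lost on omitting sham replicate 2 (adjusted p = 0.0507 to 0.0741). The calls of Gstm5, Gstm7, Cat, Prdx1 and Sod3 were lost on omitting sham replicate 3 (adjusted p = 0.0559 to 0.0985). The calls of Gstm5, Gstm7, Gsta4, Prdx1 and Sod3 were lost on omitting TAC replicate 1 (adjusted p = 0.051 to 0.102). The calls of Gstm7, Gsta4, Cat and Prdx1 were lost on omitting TAC replicate 2 (adjusted p = 0.0545 to 0.0946). The calls of Gstm5, Prdx1 and Sod3 were lost on omitting TAC replicate 3 (adjusted p = 0.0531 to 0.0842). Gstm5, Gstm7, Gsta4 and Prdx1 did not pass on omitting TAC replicates 2 and 3 together (adjusted p = 0.0521 to 0.189).

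**Figure D5:**
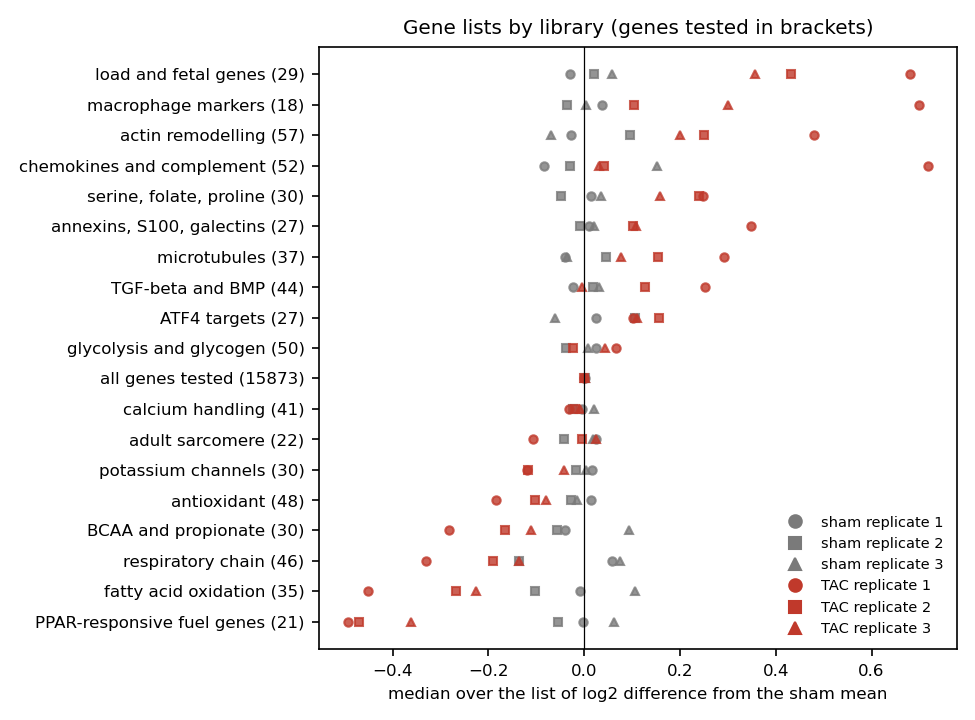
Median over each gene list of the log2 difference from the sham mean (horizontal axis) in each library, for 18 lists and for all genes tested (vertical axis, number of genes tested in brackets), with grey points for sham and red points for TAC. The load and actin lists lie right of the sham points and the PPAR and fatty acid lists left of them in all 3 TAC libraries, while the chemokine and complement list does so in TAC replicate 1 alone.

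Actin remodelling genes rose in 15 of 57 cases and fell in 1, with a median of 0.31, and 51 of 57 had a positive change. The rises numbered 3, 21 and 3 without sham replicates 1, 2 and 3, 11, 9 and 14 without TAC replicates 1, 2 and 3, and 18 without both TAC replicates 2 and 3. The medians were 0.48, 0.25 and 0.20 in TAC replicates 1 to 3. Anln, an actin-binding protein of the contractile ring in dividing cells, was in the core, with 46.2, 63.6 and 33.7 in the sham libraries and 224, 192 and 187 in the TAC libraries (log2 2.02 ± 0.22, adjusted p = 0.00357). Tpm2, a tropomyosin, was in the core too, with 1006, 874 and 933 in the sham libraries and 1681, 1365 and 1382 in the TAC libraries (log2 0.65 ± 0.10, adjusted p = 0.00966). Mical2 (0.39 ± 0.07) and profilin Pfn1 (0.48 ± 0.08) rose, and the fall was that of gelsolin, Gsn (-0.74 ± 0.13). Microtubule genes had 5 rises and 1 fall among 37. Microtubule rises numbered 2, 5 and 3 without sham replicates 1, 2 and 3, 4, 3 and 10 without TAC replicates 1, 2 and 3, and 12 without both TAC replicates 2 and 3. Stmn1, which destabilises microtubules, held 304, 393 and 330.3 in the sham libraries and 904, 788 and 714 in the TAC libraries (log2 1.22 ± 0.12, adjusted p = 0.00268), and Tubb5, a beta-tubulin, held 3501, 3939.8 and 3410.1 in the sham libraries and 7059, 6235 and 5288 in the TAC libraries (log2 0.77 ± 0.10, adjusted p = 0.00661). Both were in the core. Dynll1 (0.56 ± 0.10), Tubb2b (1.12 ± 0.21) and Kif5b (0.38 ± 0.07) rose and Ttll1 fell (-0.87 ± 0.15). The calls of Mical2, Pfn1, Gsn, Dynll1, Tubb2b, Kif5b and Ttll1 were lost on omitting sham replicate 1 (adjusted p = 0.0522 to 0.0795). The calls of Pfn1, Gsn, Tubb2b and Kif5b were lost on omitting sham replicate 3 (adjusted p = 0.0524 to 0.0684). The call of Kif5b was lost on omitting TAC replicate 1 (adjusted p = 0.0555). The calls of Dynll1 and Kif5b were lost on omitting TAC replicate 2 (adjusted p = 0.0519 and 0.0548). Mical2 did not pass on omitting TAC replicates 2 and 3 together (adjusted p = 0.0521).

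Adhesion and membrane-linked genes gave 5 rises and 0 falls among 38 integrin and dystrophin-complex genes. Integrin and dystrophin-complex rises numbered 2, 4 and 2 without sham replicates 1, 2 and 3, 2, 2 and 4 without TAC replicates 1, 2 and 3, and 10 without both TAC replicates 2 and 3. Itga9, an integrin alpha chain, had 2111, 2199.7 and 1921 in the sham libraries and 3138, 3087 and 3343 in the TAC libraries (log2 0.62 ± 0.07, adjusted p = 0.00373), and Itgbl1, a secreted integrin-like protein, had 359, 355 and 371 in the sham libraries and 768, 679 and 551 in the TAC libraries (log2 0.86 ± 0.12, adjusted p = 0.00792). Both were in the core, and Itga5 (0.53 ± 0.11), Tgfb1i1 (0.52 ± 0.11) and Itgb3 (0.91 ± 0.22) were not. Of 27 annexin, S100 and galectin genes 5 rose and 2 fell. The annexin, S100 and galectin rises numbered 1, 3 and 1 without sham replicates 1, 2 and 3, 4, 4 and 5 without TAC replicates 1, 2 and 3, and 7 without both TAC replicates 2 and 3. Lgals4, a galectin best known from gut epithelium, fell in the core, with 2838, 2753 and 3181 in the sham libraries and 1503, 1802 and 1599 in the TAC libraries (log2 -0.84 ± 0.09, adjusted p = 0.00281). S100a10 (0.48 ± 0.07), Anxa2 (0.66 ± 0.12), S100a11 (0.61 ± 0.12), Lgals1 (0.51 ± 0.11) and Anxa1 (0.50 ± 0.12) rose, and the neutrophil gene S100a9 fell (-2.60 ± 0.56). The calls of Itga5, Tgfb1i1, Itgb3, Anxa2, S100a11, Lgals1, Anxa1 and S100a9 were lost on omitting sham replicate 1 (adjusted p = 0.0555 to 0.127). The calls of Itgb3, S100a11, Lgals1 and Anxa1 were lost on omitting sham replicate 2 (adjusted p = 0.0533 to 0.0856). The calls of Itga5, Tgfb1i1, Itgb3, Anxa2, S100a11, Lgals1, Anxa1 and S100a9 were lost on omitting sham replicate 3 (adjusted p = 0.0504 to 0.12). The calls of Itga5, Tgfb1i1, Itgb3 and Anxa1 were lost on omitting TAC replicate 1 (adjusted p = 0.0552 to 0.105). The calls of Itga5, Tgfb1i1, Itgb3, Lgals1, Anxa1 and S100a9 were lost on omitting TAC replicate 2 (adjusted p = 0.0513 to 0.0988). The calls of Tgfb1i1, Itgb3 and S100a9 were lost on omitting TAC replicate 3 (adjusted p = 0.0586 to 0.0617). Tgfb1i1, S100a10 and S100a9 did not pass on omitting TAC replicates 2 and 3 together (adjusted p = 0.0644 to 0.187).

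Vessel and guidance lists each had 4 falls and 1 rise of 49, and 26 of the 49 members of each had a positive change. The median was 0.00 for angiogenesis and 0.03 for the ephrin and semaphorin list. Angiogenesis falls numbered 3, 0 and 0 without sham replicates 1, 2 and 3, 3, 2 and 3 without TAC replicates 1, 2 and 3, and 2 without both TAC replicates 2 and 3. Ephrin and semaphorin falls numbered 2, 2 and 2 without sham replicates 1, 2 and 3, 3, 1 and 3 without TAC replicates 1, 2 and 3, and 2 without both TAC replicates 2 and 3. Epas1, the hypoxia-inducible factor of endothelium, had 13976, 14156 and 13917 in the sham libraries and 8843, 10998 and 11149 in the TAC libraries (log2 -0.45 ± 0.09, adjusted p = 0.0239). Angpt1 (-0.58 ± 0.12), its receptor Tek (-0.38 ± 0.08) and Cxcl12 (-0.35 ± 0.08) fell, and prostacyclin synthase Ptgis rose (0.68 ± 0.12). Vegfa did not pass (-0.01 ± 0.08, adjusted p = 0.963). In the ephrin and semaphorin list the receptors Epha4 (-0.51 ± 0.08), Nrp1 (-0.46 ± 0.09) and Plxnb1 (-0.57 ± 0.13) and the ligand Sema6a (-0.51 ± 0.12) fell and Sema3f rose (0.66 ± 0.12), of 49. Endothelial markers, with 1 fall of 10, summed to 1522 to 1862 CPM in sham libraries and 1434 to 1599 CPM in TAC libraries. Their part in these falls was not tested. The calls of Epas1, Angpt1, Ptgis, Epha4, Plxnb1, Sema6a and Sema3f were lost on omitting sham replicate 1 (adjusted p = 0.0511 to 0.105). The calls of Epas1, Angpt1, Tek, Cxcl12, Nrp1, Plxnb1 and Sema6a were lost on omitting sham replicate 2 (adjusted p = 0.0512 to 0.0947). The calls of Epas1, Angpt1, Tek, Cxcl12, Nrp1, Plxnb1 and Sema6a were lost on omitting sham replicate 3 (adjusted p = 0.0684 to 0.103). The calls of Tek, Cxcl12, Sema6a and Sema3f were lost on omitting TAC replicate 1 (adjusted p = 0.0587 to 0.116). The calls of Tek, Cxcl12, Nrp1, Plxnb1, Sema6a and Sema3f were lost on omitting TAC replicate 2 (adjusted p = 0.0513 to 0.101). The calls of Cxcl12 and Nrp1 were lost on omitting TAC replicate 3 (adjusted p = 0.0546 and 0.0711). Angpt1, Cxcl12, Nrp1, Sema6a and Sema3f did not pass on omitting TAC replicates 2 and 3 together (adjusted p = 0.0514 to 0.148).

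Chemokine, complement and cytokine genes had 5 rises and 1 fall among 52, and the rises numbered 0, 2 and 2 without sham replicates 1, 2 and 3, 2, 6 and 4 without TAC replicates 1, 2 and 3, and 11 without both TAC replicates 2 and 3. The list's median was 0.30, with 0.72, 0.04 and 0.03 in TAC replicates 1 to 3, so the list stood above the sham libraries in TAC replicate 1 alone. Spp1, osteopontin, had 25.6, 13.6 and 42.1 in the sham libraries and 308, 130.1 and 96.8 in the TAC libraries (log2 2.49 ± 0.45, adjusted p = 0.0173). Ccl8, a monocyte chemokine, had 7.30, 11.4 and 11.6 in the sham libraries and 156, 43.7 and 40.0 in the TAC libraries (log2 2.32 ± 0.47, adjusted p = 0.0258), and its change without TAC replicate 1 was 1.72 (adjusted p = 0.045). Saa3, an acute-phase protein (2.32 ± 0.46), Tnfrsf12a (0.84 ± 0.18) and C1qa (0.47 ± 0.11) rose, and Il15 fell (-0.67 ± 0.12). The call of Spp1 was lost on omitting sham replicate 1 (adjusted p = 0.0544). The call of Ccl8 was lost on omitting any 1 sham library (adjusted p = 0.0521 to 0.0838). The call of Saa3 was lost on omitting sham replicate 1 or 3 or TAC replicate 1 or 3 (adjusted p = 0.0544 to 0.1). The call of Tnfrsf12a was lost on omitting any 1 sham library or TAC replicate 1 or 2 (adjusted p = 0.0501 to 0.0993). The call of C1qa was lost on omitting any 1 sham library or TAC replicate 1 or 3 (adjusted p = 0.0699 to 0.118). The call of Il15 was lost on omitting sham replicate 1 or 3 (adjusted p = 0.0518 and 0.056). Of 18 macrophage markers 1 rose, 17 had a positive change and the median was 0.33. Macrophage marker rises numbered 1, 0 and 0 without sham replicates 1, 2 and 3, 0, 3 and 0 without TAC replicates 1, 2 and 3, and 9 without both TAC replicates 2 and 3, and 6 passed by DESeq2. These markers summed to 353 to 377 CPM in sham libraries and to 614, 382 and 455 CPM in TAC replicates 1 to 3, and their part in these values was not tested. Neutrophil markers summed to 3.07 to 9.22 CPM in sham and 1.37 to 3.23 CPM in TAC libraries. Interferon genes had 0 of 44 past the threshold by limma, with 5 higher and 4 lower at an unadjusted p under 0.05. By edgeR 0 passed, and by DESeq2 1 rose and 1 fell. The lowest p there was that of Gbp4 (-0.86 ± 0.23, adjusted p = 0.0675), which passed without sham replicate 1 (-1.15, adjusted p = 0.0216). Interferon genes had 2 falls in that fit, and 1 rise without sham replicate 2, without TAC replicate 2 and without both TAC replicates 2 and 3.

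Immediate early and clock genes gave 3 rises and 2 falls among 37. Rises among the 37 numbered 1, 4 and 0 without sham replicates 1, 2 and 3, 1, 1 and 6 without TAC replicates 1, 2 and 3, and 4 without both TAC replicates 2 and 3. Ier5, an immediate early gene, had 852, 823 and 659.5 in the sham libraries and 1862, 2583 and 1296 in the TAC libraries (log2 1.25 ± 0.21, adjusted p = 0.0142), and Jund (0.54 ± 0.12) and Egr2 (1.55 ± 0.38) rose. The clock activator Arntl had 116, 141 and 411 normalised reads in sham replicates 1 to 3 and 51.5, 44.7 and 63.9 in TAC replicates 1 to 3 (log2 -1.76 ± 0.40, adjusted p = 0.0379), where sham replicate 3 was the high library. In the same library Per1, a clock gene of the opposite phase, was the lowest, with 5528, 6147 and 2104 in the sham libraries and 4474, 4043 and 4396 in the TAC libraries (0.05 ± 0.33, adjusted p = 0.948; without sham replicate 3 -0.44, adjusted p = 0.0352), and so was Dbp, with 4531, 4232 and 2154 in the sham libraries and 3882, 3951 and 4155 in the TAC libraries (0.21 ± 0.23, adjusted p = 0.641). Nr1d1, also of the clock, is given above. The labels give no time of day. The call of Ier5 was lost on omitting sham replicate 3 (adjusted p = 0.0518). The calls of Jund and Egr2 were lost on omitting sham replicate 1 or 3 or TAC replicate 1 or 2 (adjusted p = 0.0671 to 0.163). The call of Arntl was lost on omitting sham replicate 2 or any 1 TAC library (adjusted p = 0.052 to 0.102). Jund and Arntl did not pass on omitting TAC replicates 2 and 3 together (adjusted p = 0.0624 and 0.123).

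Several core genes stood outside the pathway lists. Among the rises, Itih4, an acute-phase plasma protein, had 98.6, 59.0 and 89.4 in the sham libraries and 329, 224 and 341 in the TAC libraries (log2 1.81 ± 0.22, adjusted p = 0.00471). It is made mainly in liver, and its TAC replicate 3, the library with liver transcripts, held 341 normalised reads against 329 in TAC replicate 1 and 224 in TAC replicate 2. Cnksr1, a scaffold of Ras signalling, had 221, 283 and 231 in the sham libraries and 709, 652 and 698 in the TAC libraries (log2 1.48 ± 0.11, adjusted p = 0.000531). Csrp2, a LIM protein of smooth muscle and activated fibroblasts, had 523, 396 and 532 in the sham libraries and 1490.4, 951 and 885 in the TAC libraries (log2 1.16 ± 0.19, adjusted p = 0.0135). Nlrc3 (log2 1.33 ± 0.23, adjusted p = 0.0146), a dampener of innate immune signals, and Ripk3, the kinase of necroptosis (102, 133 and 96.8 in the sham libraries and 264, 237 and 213 in the TAC libraries, log2 1.09 ± 0.16, adjusted p = 0.00933), also rose.

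Among the falls of the core, Ano10, a member of the anoctamin family, had 1858, 1968 and 1914 in the sham libraries and 842, 885 and 999 in the TAC libraries (log2 -1.07 ± 0.08, adjusted p = 0.000531), with the TAC libraries at about one level. Slc41a3, a magnesium transporter, had 1924, 2288 and 1970.1 in the sham libraries and 1143, 774 and 1246 in the TAC libraries (log2 -0.99 ± 0.16, adjusted p = 0.0123). Cecr2, a chromatin remodelling factor, also fell (log2 -0.78 ± 0.12, adjusted p = 0.01). Large changes that were not in the core were those of Cnn1, the smooth muscle calponin (1.67 ± 0.30), the lipoprotein receptor Lrp8 (1.78 ± 0.44) and Prr11 (1.94 ± 0.48), which rose. Cyp26b1, which degrades retinoic acid (-1.76 ± 0.42), Scgb1c1 (-1.36 ± 0.25) and the nicotinic receptor subunit Chrna2 (-1.21 ± 0.23) fell. The calls of Cnn1 and Chrna2 were lost on omitting sham replicate 3 or TAC replicate 2 (adjusted p = 0.0513 to 0.0628). The call of Lrp8 was lost on omitting any 1 sham library or TAC replicate 1 or 2 (adjusted p = 0.0559 to 0.139). The calls of Prr11 and Cyp26b1 were lost on omitting sham replicate 1 or 3 or any 1 TAC library (adjusted p = 0.054 to 0.154). The call of Scgb1c1 was lost on omitting sham replicate 1 or 3 (adjusted p = 0.0636 and 0.0655). Prr11, Cyp26b1 and Chrna2 did not pass on omitting TAC replicates 2 and 3 together (adjusted p = 0.0999 to 0.158). The change of Lrp8 was 1.18 (adjusted p = 0.0559) without TAC replicate 1.

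The response was compared with that of the BCAA-free diet, whose libraries share none with it. Of the 163 core genes 149 were tested on both diets, 144 had the same direction there, and 47 passed there too, where 4.32% of all genes did. The share of all genes with the same direction on both diets was not counted, so the 144 stand without a background. A shared direction does not mean a like size. The cell division list, with 63 core genes, had a median of 0.87 on the control diet and 0.07 on the BCAA-free diet. The medians in turn were -0.22 and 0.04 for the respiratory chain, -0.15 and 0.08 for antioxidant genes, and 0.47 and 0.42 for the load list. Differences of list medians were not tested. Of all 15498 genes tested for a difference between the responses, 7 passed (0.0452%), and 4 of them were core genes. The replicate spread on the BCAA-free diet was its own, so a gene past the threshold on 1 diet is not shown to differ. Klf2 rose on the control diet and fell on the BCAA-free diet (-0.55 ± 0.09, adjusted p = 0.0118), a difference of 1.22 ± 0.14 (adjusted p = 0.00403). Acta1 (1.83 ± 0.37, adjusted p = 0.0232), Igfbp2 (3.64 ± 0.43, adjusted p = 0.00285), Mybpc2 (1.26 ± 0.18, adjusted p = 0.0052) and Xirp2 (1.08 ± 0.20, adjusted p = 0.0178) also rose on the BCAA-free diet, and no difference between the diets passed for these 4 (adjusted p = 0.614 to 0.98). Ucp3 (-0.46 ± 0.20, adjusted p = 0.223), Pdk4 (-0.30 ± 0.22, adjusted p = 0.465), Gstm1 (-0.20 ± 0.16, adjusted p = 0.503) and Bckdha (-0.26 ± 0.12, adjusted p = 0.259) did not pass on the BCAA-free diet. The differences for Ucp3, Pdk4, Gstm1 and Bckdha in turn, control minus BCAA-free, were -0.94 ± 0.31, -0.45 ± 0.29, -0.52 ± 0.21 and -0.32 ± 0.17 (adjusted p = 0.289 to 0.65). The values of the BCAA-free diet are from all 6 of its libraries.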

How the data were processed

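RNA of mouse hearts was sequenced after polyA selection, per the labels' protocols. The submitters' processing notes name STAR 2.5.2b, Trimmomatic 0.36, DESeq2 and Subread 1.5.2, and the build GRCm38. Whether counting used strand is not stated in these sources, so overlapping or near-identical genes may share reads. The deposited library columns hold a signal, a gene's reads divided by a size factor, as the values show. The authors also deposited log2 fold changes and p-values, per the file headers. The authors' deposited table has 906 rises and 642 falls at an adjusted p under 0.05.

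Whole reads came back from these columns at a tolerance of 0.001, with 29927472 to 42114919 reads per library, and CPM were taken from them. Of 15928 identifiers, 15896 were found in GENCODE M21 on GRCm38. Genes were tested with limma 3.58.1 in R 4.3.3, with an intensity trend, on log2(value + 4). A mean of at least 10 was asked, and this filter was applied anew whenever libraries were left out. P-values were adjusted over every gene tested (Benjamini-Hochberg), at a threshold of 0.05. The diet difference was fitted over all 12 libraries, each column taken from its own TAC table. On recovered reads, edgeR 4.0.16 (quasi-likelihood) and DESeq2 1.42.0 were alternatives. The limma fit was checked on simulated data.

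The comparison, the 38 pathway lists, the 17 marker lists and the named genes were chosen with earlier results of these data known. Named genes were the 10 largest rises and falls with a mean of at least 50 and groups that did not overlap, outside the cell division and matrix lists. To these came the same within the core, up to 4 members per list by smallest p, and a set of reference genes. Other members of counts of 5 or fewer, list members in the core, mitochondrial tRNA genes and some pathway partners were named after their values were seen. Some genes that these rules take are not reported here. Same-numbered libraries did not deviate together (r = -0.0355, 0.00866 and 0.0223), so the main fit has no replicate block. Reads are not independent molecules.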

Additional observations from a re-analysis of the deposited data

Results flagged for a closer look

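The response to TAC differed between the diets for 7 genes, by the limma test of the difference itself (control minus BCAA-free, adjusted p under 0.05). Lmnb1, which encodes lamin B1, rose by 1.31 ± 0.10 on the control diet, against 0.11 ± 0.12 on the BCAA-free diet, a difference of 1.20 ± 0.14 (adjusted p = 0.00403). Klf2 changed by 0.67 ± 0.09 and by -0.55 ± 0.09, a difference of 1.22 ± 0.14 (adjusted p = 0.00403). The splicing factor gene Srsf2 changed by 0.25 ± 0.07 and -0.38 ± 0.07, a difference of 0.635 (adjusted p = 0.0404). Igfbp6, another binding protein of insulin-like growth factors, changed by -0.12 ± 0.09 and 0.67 ± 0.08, a difference of -0.788 (adjusted p = 0.0404). For Cdc7, a kinase of DNA replication, the difference was 1.97, for Stmn1 1.08 and for the predicted gene Gm25262, which had few reads, 2.54 (adjusted p = 0.0434 for each).

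Lmnb1 and Klf2 passed with any 1 of the 12 libraries left out, with adjusted p-values of 0.00518 to 0.024 for both. Without both control TAC replicates 2 and 3 they did not pass (adjusted p = 0.0653 for each). Each of the other 5 genes lost the call in at least 1 such fit.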

How the results depend on the processing

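The 848 genes called for TAC on the control diet numbered 1539 by DESeq2 and 300 to 659 with 1 library left out. They numbered 91 and 180 when TAC replicate 3, or TAC replicates 2 and 3, were left out without applying the filter anew, an alternative chosen after seeing the data. That setting kept 27 and 31 genes with 0 reads in every library left, and the prior degrees of freedom of limma were 3.66 and 3.23, against 6.07 and 6.57 with the filter applied anew. The other alternatives stayed within 1.5 times: a replicate block (805), edgeR (731), array weights (915), a shared spread (1172), quantile normalization (786), a mean of at least 50 (761), no filter (839), and pseudocounts of 1 and 16 (847 and 820). The 7 genes for the difference between the diets numbered 108 by DESeq2, 5 by edgeR, 4 with a mean of at least 50, 4 with a pseudocount of 1, 4 after quantile normalization and 1 without both control TAC replicates 2 and 3. They numbered 2 to 15 with 1 library left out. With the replicate block, limma gave 0 genes, with 1391 at an unadjusted p under 0.05, against 1565 without it; the causes of these differences were not tested. Of 805 genes called with the block, 682 were among the 848. Same-numbered libraries did not deviate together, so the block rests on a shared number only. No change of a named gene that passed turned its sign, and Per1, which did not pass, went from 0.05 to -0.44 (adjusted p = 0.0352) without sham replicate 3, and to at most 0.33 with another library left out.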

Other observations

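Mitochondrial tRNA genes, which were noticed after their values were seen, gave 8 falls and 0 rises among 20 tested, with a median log2 change of -0.63. Over all genes tested 1.94% fell. Of the 20, 16 were lower and 4 passed in all 8 fits. The tRNA gene mt-Tn had 25438, 18118 and 25094 normalised reads in sham replicates 1 to 3 and 8767, 10851 and 13534 in TAC replicates 1 to 3 (log2 -1.06 ± 0.17, adjusted p = 0.0116). For mt-Ta the values were 3558, 3897 and 3816 in the sham libraries and 2346, 2136 and 2485 in the TAC libraries (log2 -0.69 ± 0.07, adjusted p = 0.00285), and neither gene overlapped between the groups. The protein genes of the mitochondrial genome had a median of -0.26, and 1 of 13 passed. Nuclear copies of mitochondrial sequence may share these reads. The RNA was selected by polyA, and whether the tRNA reads come from mature tRNAs was not tested.

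Fibroblast markers gave 1 rise and 3 falls among 11, with a median of 0.02 and a positive change in 6 of 11. Their sum was 2022 to 2118 CPM in the sham libraries and 1641 to 1681 CPM in the TAC libraries, with no overlap. Abundant members weigh most in such a sum, and the median of the list was not lower. Mfap5, of elastic microfibrils, rose by 0.99 ± 0.17, while Clec3b (-0.46 ± 0.08), gelsolin Gsn (-0.74 ± 0.13) and Pdgfra (-0.38 ± 0.08) fell. The call of Clec3b was lost on omitting sham replicate 1 or TAC replicate 2 (adjusted p = 0.0519 and 0.0579). The call of Gsn was lost on omitting sham replicate 1 or 3 (adjusted p = 0.0563 and 0.0641). The call of Pdgfra was lost on omitting any 1 sham library or TAC replicate 2 or 3 (adjusted p = 0.0537 to 0.0994). Pdgfra did not pass on omitting TAC replicates 2 and 3 together (adjusted p = 0.189).

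Mesothelial and epicardial markers summed to 6.22 to 8.40 CPM in sham libraries and to 18.6, 8.74 and 8.32 CPM in TAC replicates 1 to 3. Hp, haptoglobin, which liver and fat make, had 835 reads in TAC replicate 1 and 413 in TAC replicate 3, against 59 to 97 in the sham libraries and 77 in TAC replicate 2. T cell markers summed to 2.52 to 4.88 CPM in sham libraries and to 2.28 to 2.57 CPM in TAC libraries.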
